A study of Arabidopsis thaliana with 37 samples.

Results

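Seedlings of Arabidopsis thaliana that carried the ago1-11 allele were compared with Ler wild type at 21 days. The samples were 3 arrays whose labels give the background ago1-11 and an age of 21 days, and 3 arrays whose labels give the background Ler (1) and the same age, 6 of the 37 arrays in the series. The series profiled total RNA on one-colour Affymetrix arrays with 8247 probe sets, in wild type and in plants with an altered microRNA pathway. Ler, short for Landsberg erecta, is a laboratory accession of Arabidopsis. Other groups set beside the main comparison were ago1-11 at 9 days (4 arrays) with Ler at 9 days (3 arrays), ago1-10, a second allele of the same gene, at 21 days (3 arrays), and dcl1-9 at 21 days (4 arrays) with its own wild-type set, Ler (2) (4 arrays). Col, another accession, was represented by 3 arrays at 21 days, which are meant where no age is given, and by 3 arrays at 9 days. The series also holds ago1-10 at 9 days (4 arrays) and at 35 days (3 arrays). The labels name the source as seedling and give no treatment, growth condition or dissection. They also give no accession for the ago1-11 plants. All 3 ago1-11 arrays share 1 strain code and all 3 Ler (1) arrays another, so strain code and genotype cannot be told apart.

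ARGONAUTE1 (AGO1) is the protein that holds most plant microRNAs and uses them to find matching messenger RNAs, which it cleaves or keeps from being translated. DICER-LIKE1 (DCL1), the gene altered in dcl1-9, cuts most microRNAs out of their precursors. Genes paired to microRNAs include transcription factors of leaf development, enzymes of sulfate assimilation and copper proteins, and plants with less AGO1 activity grow slowly with narrow or misshapen leaves. The annotation assigns no probe set to AGO1 or to DCL1, so the altered gene could not be followed.

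Signals were scaled so that every array had the same median, 19.1 units. Of the probe sets, 6048 exceeded 12 units, which 40% of all readings do not reach, on 3 or more arrays and were tested, and 2660 of these have 1 gene in the annotation. Differences are given as log2(signal + 1.1) in ago1-11 minus the same in Ler (1), with the half-width of the 95% interval after ±, and a probe set was called at an adjusted p under 0.05 in limma. The deposited medians were 12.8, 17.8 and 18.7 in ago1-11 arrays and 21.3, 18.1 and 11.3 in Ler (1) arrays. Pairs of ago1-11 arrays correlated at 0.914 to 0.935 over tested probe sets, pairs of Ler (1) arrays at 0.915 to 0.955, and pairs across the groups at 0.885 to 0.947, so the ranges overlapped. Named green-tissue markers (7 genes) summed to 19728 to 22880 units in ago1-11 arrays and 22664 to 24063 units in Ler (1) arrays, and none was called. Flower and pollen markers (3 genes) summed to 131 to 166 units in ago1-11 arrays and 136 to 159 units in Ler (1) arrays, and none was called. That sum joins opposite directions, with ACT11 at 0.77, ROXY1 at 0.96 and the brighter TUA1 at -0.37. ACT11 gave 48.6, 76.0 and 45.9 units in ago1-11 arrays and 27.6, 36.5 and 32.6 units in Ler (1) arrays, without overlap. The seed marker OLEO3 was dim, at 1.02 to 3.76 units in ago1-11 arrays and 2.15 to 2.95 units in Ler (1) arrays, and no root or senescence marker is named on the array. In whole seedlings, fewer cells of a type and less RNA per cell cannot be told apart.

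Altogether 145 probe sets, 2.40% of those tested, were called in 21-day ago1-11 seedlings, 72 of them higher (1.19%) and 73 lower (1.21%). At least 2-fold were 68 of the higher and 68 of the lower ones. At an unadjusted p under 0.05 there were 989. Over all tested probe sets the median difference was -0.02, the SD 0.61, and 47.8% were positive. The 3 ago1-11 arrays all lay above the 3 Ler (1) arrays for 456 tested probe sets (7.54%) and all below them for 510 (8.43%), counts without a test. Among the called ones this held for 70 of the 72 higher and 70 of the 73 lower. The called probe sets include 58 with 1 gene, which cover 56 loci, 24 higher and 32 lower, and 87 that the annotation leaves unnamed. The median 95% half-interval over tested probe sets was 0.67, so many changes below 2-fold were not detectable with 3 arrays a group. Each array moved the count. Without ago1-11 replicate 1, 2 or 3 it was 56, 87 or 219, and without Ler (1) replicate 1, 2 or 3 it was 68, 257 or 75. Ler (1) replicate 2 had the lowest weight of these 6 arrays in limma's array weighting, 0.386. There were 37 probe sets called in every one of these omissions, 19 higher and 18 lower, and the other 108 were lost in at least 1.

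**Figure D1:**
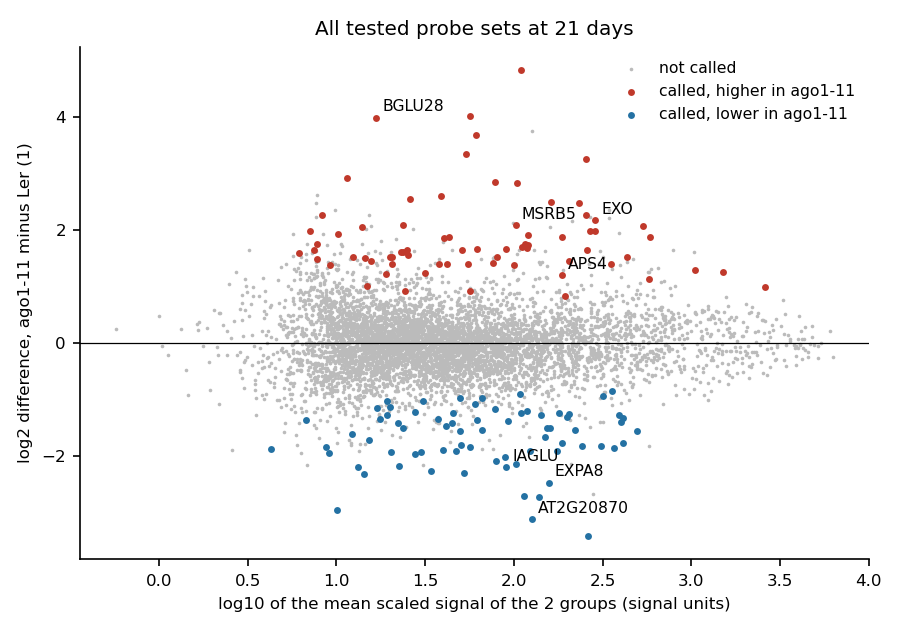
Log2 difference (ago1-11 minus Ler (1), 21 days) of each of the 6048 tested probe sets against the log10 of the mean scaled signal of the 2 groups. Red points are the 72 called higher in ago1-11 and blue points the 73 called lower, and they spread over dim and bright probe sets alike, with BGLU28 among the highest and AT2G20870 among the lowest.

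Several of the genes listed for sulfate assimilation and sulfur response had higher signal in ago1-11. The list was chosen with earlier results of these data known, so its counts are a description and not independent support. Of 5 listed genes tested, 3 were called higher and 0 lower, with a median difference of 1.19 against -0.02 over all probe sets, and 1.19% of all probe sets were called higher. BGLU28 encodes a beta-glucosidase that responds strongly to sulfur limitation. Its signal was 27.0, 51.1 and 19.5 units in ago1-11 arrays, against 1.08, 0.844 and 0.676 units in Ler (1) arrays. The groups were far apart, and the Ler (1) signals were below the constant added before the log. Its difference was 3.99 ± 1.35 (adjusted p = 0.000407), or 1.47 with 16 units added in place of 1.1, and it was called in every omission of 1 array. BGLU28 was among the tested genes only because of its ago1-11 arrays at 21 days. In all other groups its readings were too low for testing, at most 10.9 units, in ago1-10 at 35 days. The count of 3 called among 5 tested thus includes a gene admitted by the group in which it was high.

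APS4 encodes an ATP sulfurylase, the first enzyme of sulfate assimilation, and its transcript is a target of miR395. It gave 317, 203 and 259 units in ago1-11 arrays, against 95.1, 142 and 101 units in Ler (1) arrays. The lowest ago1-11 array stood above the highest Ler (1) array. The difference was 1.19 ± 0.56 (adjusted p = 0.0144), and the call was lost in 3 of the 6 omissions. MSRB5, a methionine sulfoxide reductase that repairs oxidised methionine, gave 194, 207 and 98.7 units in ago1-11 arrays and 52.6, 28.7 and 32.3 units in Ler (1) arrays. The third ago1-11 array was the lowest of its group but still above every Ler (1) array. Its difference was 2.08 ± 0.66 (adjusted p = 0.000234), and it was called in every omission. The sulfite reductase gene SIR (-0.23) and APS3 (-0.03), another ATP sulfurylase of the miR395 target family, were not called.

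Among 6 listed microRNA and TAS3 targets tested, APS4 alone was called, beside 2.40% of all probe sets, and the median was 0.29. The plantacyanin gene ARPN, a target of miR408, gave 42.4, 26.1 and 29.1 units in ago1-11 arrays and 11.9, 23.5 and 12.3 units in Ler (1) arrays on its brightest probe set. Its groups did not overlap, but the difference of 1.02 ± 0.82 had an adjusted p of 0.196. The copper chaperone gene CCS, a target of miR398, was at 0.46 ± 0.72 with overlapping groups. The F-box gene LCR, a target of miR394, was at 0.12 and the HD-ZIP gene PHV, a target of miR165 and miR166, at -0.01. The list holds few targets because few have a named probe set. Of the small RNA pathway itself, SERRATE (SE), which assists DCL1, was at 0.12 and NRPE3B, an RNA polymerase subunit, at 1.25 ± 1.35 (adjusted p = 0.350). The leaf polarity gene YAB3 gave 95.6, 130 and 136 units in ago1-11 arrays and 94.1, 81.9 and 60.8 units in Ler (1) arrays on probe set 14820_g_at. That difference of 0.61 ± 0.60 was not called (adjusted p = 0.295), and its other probe set was at 0.13.

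Cell wall and growth genes moved in both directions. Of 17 tested, 2 were called higher and 1 lower, and the median was 0.32. Over all probe sets 1.19% were called higher and 1.21% lower. EXO, a brassinosteroid-responsive gene that promotes leaf and root growth, gave 420, 459 and 533 units in ago1-11 arrays and 102, 114 and 93.5 units in Ler (1) arrays. The replicates were tight in both groups, and the groups lay far apart. EXO differed by 2.18 ± 0.84 (adjusted p = 0.00215) and was called in every omission. It is also the 1 tested gene of the brassinosteroid list. XTH33, a xyloglucan endotransglucosylase/hydrolase that remodels the wall, gave 4.92, 12.8 and 18.9 units in ago1-11 arrays and 2.24, 2.00 and 1.52 units in Ler (1) arrays. These were near background, and XTH33 passed the filter only with its ago1-11 arrays at 21 days. Elsewhere its readings reached at most 13.1 units in ago1-10 at 21 days and 12.9 units in Ler at 9 days, on too few arrays for testing. The count of 2 called higher among 17 tested thus includes a gene admitted with the group in which it was high. The difference of 1.98 ± 1.04 (adjusted p = 0.0294) was 0.62 with 16 added, and the call was lost in 4 omissions.

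EXPA8, an expansin that loosens the wall, was lower in ago1-11, with 32.1, 65.9 and 44.8 units in ago1-11 arrays and 223, 357 and 219 units in Ler (1) arrays. Every ago1-11 array was below every Ler (1) array. Its difference of -2.48 ± 1.39 passed narrowly (adjusted p = 0.0435), and the call was lost in all 6 omissions. The pectin methylesterase gene ATPMEPCRB was at 1.78 ± 1.06 (adjusted p = 0.0565), with all ago1-11 arrays above all Ler (1) arrays. AT1G60590, a pectin lyase-like gene outside the list, was lower at -1.94 ± 0.94 (adjusted p = 0.0165), though both groups were dim. With 16 added its difference was -0.69, and its call was lost in 3 omissions.

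**Figure D2:**
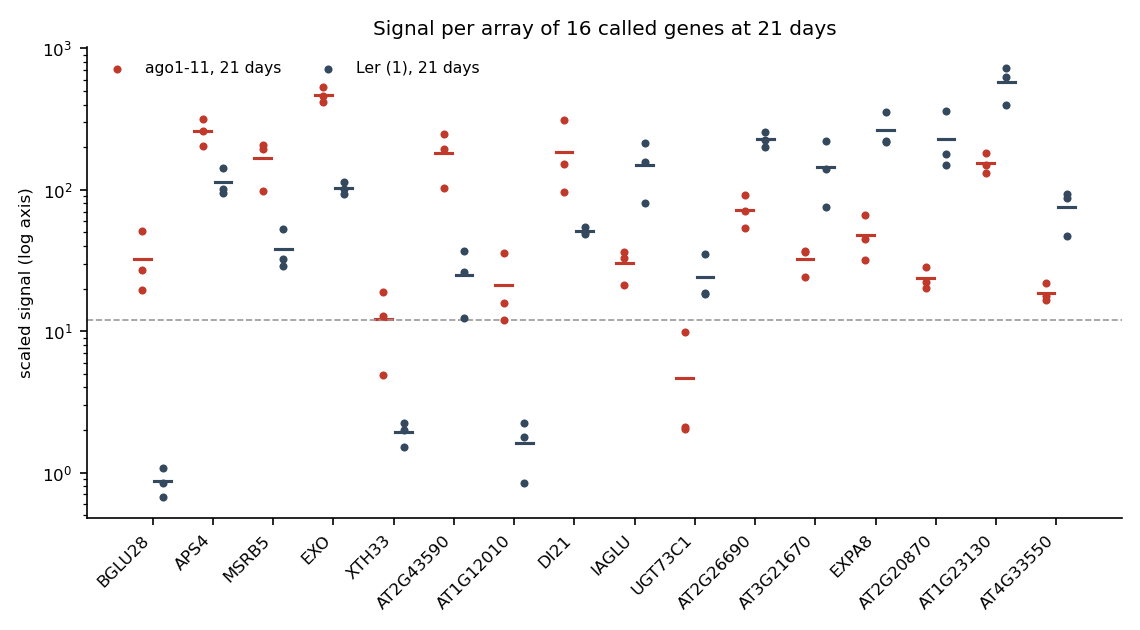
Scaled signal on a log axis for 16 called genes, with 1 point per array (ago1-11 at 21 days, red, left; Ler (1) at 21 days, blue, right), a bar at each group mean and a dashed line at the filter value of 12 units. In all 16 the 3 ago1-11 points lie on one side of the 3 Ler (1) points, and BGLU28, XTH33 and AT1G12010 have Ler (1) signals far below the filter value. AT2G20870, DI21 and AT2G43590 are each drawn from 1 of their 2 probe sets, and the AT2G43590 probe set left out was not called (1.32).

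Lower calls were also made among the glycosyltransferase genes. Of 18 UDP-glycosyltransferases tested, 3 were called lower and 0 higher, with a median of -0.33, beside 1.21% of all probe sets called lower. IAGLU, which joins glucose to the auxin indole-3-acetic acid, gave 33.1, 21.2 and 36.1 units in ago1-11 arrays and 213, 80.0 and 158 units in Ler (1) arrays. The second array of each group was the lowest, and the groups did not overlap. The difference was -2.20 ± 0.59 (adjusted p = 3.9e-05), and IAGLU was called in every omission. UGT73C1, which glucosylates cytokinins and other small molecules, gave 2.09, 9.87 and 2.04 units in ago1-11 arrays and 18.2, 35.1 and 18.6 units in Ler (1) arrays. UGT73C1 differed by -2.32 ± 1.03 (adjusted p = 0.00885), and by -0.95 with 16 added, since its ago1-11 signals were near background, and its call was lost in 1 omission. UGT73B1, a flavonoid glucosyltransferase, differed by -2.20 ± 1.14 (adjusted p = 0.0258), or by -0.89 with 16 added, and its call was lost in 4 omissions. IAGLU also stands in the auxin list, where it was the 1 call of 6 genes tested and the median was -0.57. In that list the auxin-conjugating enzyme genes WES1 (-0.95 ± 0.82, adjusted p = 0.228) and GH3.3 (0.77 ± 1.34) were not called.

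In the list of chitinases, PR proteins and other defence proteins, 10 were tested, 8 were positive, the median was 0.67 and 0 were called. The defensin-like gene LCR67 had the highest value there, 2.62 ± 1.89 (adjusted p = 0.134), and the osmotin gene OSM34 was at 1.33 ± 0.96 with overlapping groups. Outside the list, the chitinase gene AT2G43590 gave 194, 103 and 250 units in ago1-11 arrays and 12.4, 36.8 and 26.2 units in Ler (1) arrays. The groups were separate, and the difference was 2.84 ± 1.60 (adjusted p = 0.0438), lost in 5 omissions. Its second probe set was at 1.32 and was not called (adjusted p = 0.0698). AT4G33720, a PR-1-like gene, was called at 3.26 ± 1.85 (adjusted p = 0.0463) although its groups overlapped, with 641, 118 and 525 units in ago1-11 arrays and 5.11, 201 and 35.7 units in Ler (1) arrays. It falls outside the rule for named genes and was chosen after its values were seen. The lectin gene AT3G15356 (1.91 ± 0.93, adjusted p = 0.0165), the dirigent gene AT1G22900 (2.05 ± 0.94, adjusted p = 0.0111) and the peroxidase gene AT4G36430 (1.69 ± 0.87, adjusted p = 0.0247) were also higher. The calls of these 3 genes were lost in 3, 3 and 4 omissions.

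Other called genes with higher signal lay outside the lists. AT1G12010, an ACC oxidase-like gene of ethylene synthesis, gave 36.0, 12.0 and 15.9 units in ago1-11 arrays and 2.24, 1.79 and 0.845 units in Ler (1) arrays. Ler (1) was again near background, so the difference of 2.93 ± 1.23 (adjusted p = 0.0044) became 1.03 with 16 added. The RING finger gene AT2G42360 (2.54 ± 1.25, adjusted p = 0.0183) and the EF-hand calcium-binding gene AT4G27280 (1.73 ± 0.93, adjusted p = 0.0341) were also higher. So were AT3G57780 (1.75 ± 0.80, adjusted p = 0.0099) and AT4G37660 (1.55 ± 0.83, adjusted p = 0.0341). The calls of AT1G12010, AT2G42360, AT4G27280, AT3G57780 and AT4G37660 were lost in 1, 3, 4, 3 and 4 omissions. In the cold, drought and LEA list, DI21, a drought-induced gene, gave 311, 151 and 96.8 units in ago1-11 arrays and 50.3, 54.1 and 48.8 units in Ler (1) arrays on probe set 16943_s_at. Its ago1-11 arrays spread widely and all lay above the tight Ler (1) arrays, and its probe sets gave 1.68 ± 0.94 (adjusted p = 0.0435) and 1.64 ± 0.81 (adjusted p = 0.0189). These calls were lost in 5 and 4 omissions, and the first also with 16 added (adjusted p = 0.0552). DI21 was the 1 called gene of 14 in that list, beside 2.40% of all probe sets called, and the list median was 0.22. The LEA gene AT2G46140 (2.01, adjusted p = 0.0509), the glutathione S-transferase gene GSTF3 (1.49, adjusted p = 0.0509) and the GDSL lipase gene AT1G54010 (2.06, adjusted p = 0.0521) just missed the threshold.

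The listed groups not yet described had 0 called. Photosynthesis and chlorophyll genes (18 tested) had a median of -0.30 with 4 positive, and the lowest was the thylakoid ascorbate peroxidase gene TAPX at -1.09 ± 0.79 (adjusted p = 0.133). TAPX gave 49.8, 84.2 and 81.0 units in ago1-11 arrays and 180, 131 and 145 units in Ler (1) arrays, and its second probe set was at -1.15 (adjusted p = 0.0513). WRKY and zinc finger factors (10 tested) had a median of 0.19, with WRKY53 at 1.26 ± 1.23 (adjusted p = 0.291). Glutathione S-transferases (3 tested) had a median of -0.63, cytochromes P450 (3 tested) -0.14, with CYP71B28 at -0.20, and cell cycle and histone genes (3 tested) -0.08, with the linker histone gene HIS1-3 at -0.38. The heat shock gene Hsp70-2 was at 0.26 on its brightest probe set and the ethylene signalling factor EIN3 at -0.15. Class III peroxidases, ribosomal proteins and receptor kinases had no listed gene, since their product names were not matched in the gene table.

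Outside the lists, the genes with the lowest differences were of several kinds. AT2G20870, annotated as a cell wall protein precursor in Arabidopsis, gave 22.2, 28.3 and 20.2 units in ago1-11 arrays and 179, 358 and 150 units in Ler (1) arrays on probe set 12096_at. The second Ler (1) array was the highest, and the groups did not overlap. Its difference was -3.13 ± 1.29 (adjusted p = 0.00389) there and -2.71 ± 1.22 (adjusted p = 0.0099) on probe set 12097_g_at. AT1G23130, of the Bet v 1 family, gave 182, 150 and 132 units in ago1-11 arrays and 721, 399 and 623 units in Ler (1) arrays, a difference of -1.87 ± 0.74 (adjusted p = 0.00268). The lipid transfer protein gene AT4G33550 gave 21.8, 17.7 and 16.5 units in ago1-11 arrays and 88.1, 92.9 and 47.0 units in Ler (1) arrays. Its ago1-11 arrays were close together, and its difference was -1.91 ± 0.64 (adjusted p = 0.000395). Both genes were called in every omission, as were the acyltransferase gene AT2G39980 (-1.93 ± 0.76, adjusted p = 0.0023) and AT4G27020 (-2.19 ± 0.90, adjusted p = 0.00382). The GDSL lipase gene AT2G04570 (-1.97 ± 0.93, adjusted p = 0.0144), AT4G01870 (-1.78 ± 0.88, adjusted p = 0.0189) and AFR, an F-box gene of far-red light signalling (-1.85 ± 0.99, adjusted p = 0.0325), were lower too, with calls lost in 2, 4 and 5 omissions.

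AT3G21670 (NPF6.4), of the nitrate and peptide transporter family, gave 24.0, 36.9 and 36.6 units in ago1-11 arrays and 220, 75.8 and 141 units in Ler (1) arrays, a difference of -2.02 ± 0.97 (adjusted p = 0.0158). Its call was lost in 3 omissions. AT2G26690 (NPF6.2), of the same family, gave 53.7, 70.9 and 92.2 units in ago1-11 arrays and 255, 200 and 225 units in Ler (1) arrays. The groups did not overlap for either gene. AT2G26690 differed by -1.66 ± 0.60 (adjusted p = 0.000957) and was called in every omission. Other called genes, like AT2G26690 chosen for mention after their values were seen, included the vacuolar processing protease gene GAMMA-VPE (-1.33 ± 0.64), the manganese transporter gene MTP11 (-1.35 ± 0.65), the calmodulin-binding protein gene IQD22 (-1.43 ± 0.68) and the lycopene cyclase gene LYC of carotenoid synthesis (-0.86 ± 0.48). GAMMA-VPE gave 218, 210 and 268 units in ago1-11 arrays and 778, 481 and 527 units in Ler (1) arrays. On the higher side, CCOAMT, a methyltransferase of lignin synthesis, was called at 1.39 ± 0.77 and the glutaredoxin gene AT2G30540 at 1.40 ± 0.74. The 4 largest differences without a gene name, also chosen after their values were seen, were at probe sets 14635_s_at (4.83 ± 1.32) and 17844_at (4.02 ± 1.28), which were higher, and 15141_s_at (-3.42 ± 1.19) and 14607_at (-2.95 ± 1.17), which were lower.

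Over the 31 called probe sets that the rule for named genes chose, the call was lost for 18 without ago1-11 replicate 1, for 11 without replicate 2 and for 6 without replicate 3. Without Ler (1) replicate 1, 2 or 3 it was lost for 18, 5 or 17. In 9 of the 31 it was kept in all 6 omissions. A group mean lay below the filter value of 12 units for 43 of the 145 called probe sets, and with 16 units added 135 of the 145 were still called.

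The comparison with 9-day seedlings asks which of these differences were also called in younger plants. At 9 days 259 probe sets, or 4.28%, were called between ago1-11 and Ler, with no array shared. Of the 145 called at 21 days, 31 were called in the same direction at 9 days (21.4% of the 145 and 12.0% of the 259) and 7 in the opposite direction. The difference between the effects at 9 and 21 days was itself called for 103 probe sets (1.70%), 30 of them among the 145. AT4G33550 (-2.37 at 9 days, adjusted p = 2.0e-06) and AT1G23130 (-2.46 at 9 days, adjusted p = 1.6e-05) were lower at both ages, as was UGT73C1 (-1.62, adjusted p = 0.0438). UGT73C1 was dim at 9 days, with 3.20 ± 2.48 units in ago1-11 (SD, n = 4) and 10.8 ± 0.955 units in Ler (SD, n = 3), below the filter value. AT1G12010 (2.71 at 9 days, adjusted p = 0.00404) and AT4G27280 (1.93, adjusted p = 0.0075) were higher at both. At 9 days AT1G12010 was at 16.5 ± 8.67 units in ago1-11 (SD, n = 4), above Ler but below Col of the same age, 28.4 ± 4.51 units (SD, n = 3).

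BGLU28 had no difference at 9 days that passed, with 0.639 ± 0.225 units in ago1-11 (SD, n = 4) and 1.03 ± 0.483 units in Ler (SD, n = 3). Its effect at 21 days exceeded that at 9 days by 4.27 (adjusted p = 0.0121). MSRB5 stood at 52.2 ± 12.2 units in ago1-11 (SD, n = 4) and 72.4 ± 5.26 units in Ler (SD, n = 3) at 9 days, and its effect differed by 2.57 between the ages (adjusted p = 0.00143). XTH33 changed sides. At 9 days it was 1.87 ± 0.334 units in ago1-11 (SD, n = 4) and 10.9 ± 2.58 units in Ler (SD, n = 3), and at 21 days 12.2 ± 7.00 units in ago1-11 and 1.92 ± 0.367 units in Ler (1) (SD, n = 3 each). The effects differed by 3.97 (adjusted p = 0.00174), at signals near background. XTH33 also passed the filter only with its ago1-11 arrays at 21 days, so this p-value is not independent of how it was admitted.

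AT3G15356 showed the same turn at higher signal. At 9 days it was 92.9 ± 48.5 units in ago1-11 (SD, n = 4) and 305 ± 103 units in Ler (SD, n = 3), and at 21 days 193 ± 83.3 units in ago1-11 and 48.7 ± 16.4 units in Ler (1) (SD, n = 3 each). Both effects passed, and their difference was 3.73 (adjusted p = 0.0011). The unnamed probe set 14635_s_at turned by more. It read 3.71 ± 1.84 units in ago1-11 (SD, n = 4) and 215 ± 107 units in Ler (SD, n = 3) at 9 days, against 213 ± 69.9 units in ago1-11 and 6.46 ± 2.66 units in Ler (1) at 21 days (SD, n = 3 each). In these 3 cases the signal was high in Ler at 9 days and low in Ler (1) at 21 days, while the ago1-11 signal was low at 9 days and high at 21 days. The Ler (2) arrays, also of 21 days, were low too for XTH33, at 0.929 ± 0.300 units, but stood at 138 ± 46.8 units for AT3G15356 and 265 ± 174 units for 14635_s_at (SD, n = 4). AT1G60590 was called lower at 21 days and stood at 0.63 at 9 days, and the effects differed by -2.57 (adjusted p = 0.0305). For APS4 (difference of effects 1.28, adjusted p = 0.0692) and IAGLU (-1.36, adjusted p = 0.063) the change with age was not called.

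**Figure D3:**
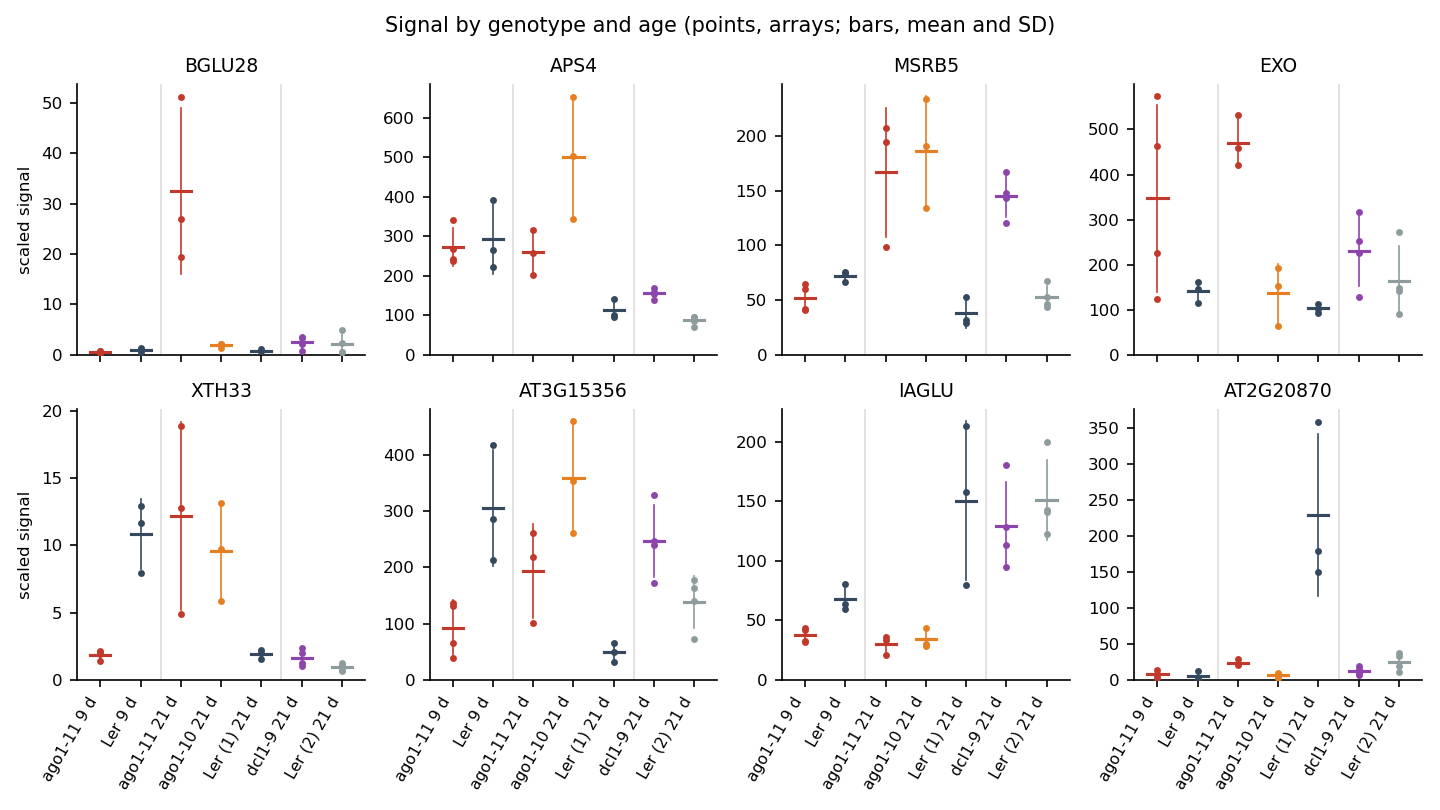
Scaled signal of 8 genes in 7 groups (points, arrays; bars, mean and SD), with 9-day groups on the left, 21-day ago1-11, ago1-10 and Ler (1) in the middle and 21-day dcl1-9 and Ler (2) on the right. BGLU28 is at 19.5 to 51.1 units in the 21-day ago1-11 arrays and at most at 4.92 units in the other groups drawn, XTH33 and AT3G15356 are high in Ler at 9 days and low in Ler (1) at 21 days, and AT2G20870 (probe set 12096_at) averages 229 units in Ler (1) and at most 25.1 units in the other groups drawn.

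The comparison with ago1-10 at 21 days asks how the alleles differ. Both alleles are set against the same Ler (1) arrays, so the direct difference between ago1-11 and ago1-10 was tested, and it was called for 454 probe sets (7.51%), 26 of them among the 145. BGLU28 was 32.5 ± 16.5 units in ago1-11 and 1.95 ± 0.437 units in ago1-10 (SD, n = 3 each), a difference of 3.36 (adjusted p = 0.00263). It was admitted to testing only by these ago1-11 arrays, so the p-value is not independent of that. EXO was 471 ± 56.9 units in ago1-11 and 137 ± 65.0 units in ago1-10 (SD, n = 3 each), higher in ago1-11 by 1.91 (adjusted p = 0.00546). APS4 went the other way, with 260 ± 57.1 units in ago1-11 and 500 ± 155 units in ago1-10 (SD, n = 3 each), a difference of -0.92 (adjusted p = 0.0374). The peroxidase gene AT4G36430 was 166 ± 67.0 units in ago1-11 and 482 ± 91.0 units in ago1-10 (SD, n = 3 each), a difference of -1.59 (adjusted p = 0.0208). AT1G23130 was also lower in ago1-11 than in ago1-10 (-1.16, adjusted p = 0.0461), and AT2G20870 was higher on probe set 12097_g_at (2.55, adjusted p = 0.0092) but not on 12096_at (1.82, adjusted p = 0.0725). YAB3 stood at 121 ± 21.9 units in ago1-11 and 30.2 ± 4.72 units in ago1-10 (SD, n = 3 each), a difference of 1.95 (adjusted p = 0.00011). MSRB5 (-0.20 ± 0.66) and IAGLU (-0.18 ± 0.59) had direct differences whose 95% intervals include 0.

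The comparison with dcl1-9 asks how ago1-11 differs from a mutant of microRNA production. The dcl1-9 arrays have their own wild-type set, and 49 probe sets (0.810%) were called between dcl1-9 and Ler (2). Of the 145, 7 were called in the same direction there (4.83% of the 145 and 14.3% of the 49) and 1 in the opposite direction. The difference between the effects was called for 12 probe sets (0.198%), 10 of them among the 145. IAGLU was 129 ± 36.7 units in dcl1-9 and 151 ± 33.7 units in Ler (2) (SD, n = 4 each), and its effects differed by -1.96 (adjusted p = 0.0151). AT4G33550 was 40.4 ± 6.38 units in dcl1-9 and 36.1 ± 12.0 units in Ler (2) (SD, n = 4 each), and its effects differed by -2.11 (adjusted p = 0.0151). For AT4G33550 the wild-type sets themselves stood apart, with Ler (2) minus Ler (1) at -1.04 (adjusted p = 0.0565), and ago1-11 minus Ler (2) was -0.87. For IAGLU, Ler (2) minus Ler (1) was 0.09. MSRB5 was higher in dcl1-9 too, at 145 ± 19.1 units in dcl1-9 and 52.7 ± 10.3 units in Ler (2) (SD, n = 4 each), a difference of 1.45 (adjusted p = 0.00444). AT4G33720 (4.10, adjusted p = 0.00426), named above as PR-1-like, and the hydrolase gene AT2G39420 (1.28, adjusted p = 0.0233) were higher in dcl1-9, as they were in ago1-11 (3.26 and 1.21), and the allantoate amidohydrolase gene AAH was lower in both (-1.25 in dcl1-9, -1.23 in ago1-11). These last 3 genes were chosen after their values were seen.

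The choice of wild type touched some of these results. With Ler (2) in place of Ler (1), 721 probe sets (11.9%) were called against ago1-11, and 97 of the 145 were called in the same direction, while 7 had the opposite sign. With Col, 742 (12.3%) were called, among them 91 of the 145 in the same direction, and 72 of the 145 were called against both. The Ler sets differed from each other at 112 probe sets (1.85%), 13 of them among the 145. On probe set 12096_at, AT2G20870 was 23.6 ± 4.22 units in ago1-11 (SD, n = 3), beside 229 ± 113 units in Ler (1) (SD, n = 3), 25.1 ± 12.3 units in Ler (2) (SD, n = 4) and 33.2 ± 30.7 units in Col (SD, n = 3). Ler (2) minus Ler (1) was -3.17 for it (adjusted p = 0.00277), and ago1-11 minus Ler (2) was 0.04. For probe set 14635_s_at ago1-11 minus Ler (2) was -0.07. Probe set 15141_s_at was 47.7 ± 29.8 units in ago1-11 (SD, n = 3), beside 48.8 ± 19.1 units in Ler (2) (SD, n = 4) and 479 ± 306 units in Ler (1) (SD, n = 3), and ago1-11 minus Ler (2) was -0.25. Of the other unnamed probe sets, 14607_at was not called against Ler (2) (-1.25, adjusted p = 0.133) and 17844_at was (5.29). MSRB5 was 215 ± 72.6 units in Col (SD, n = 3), above its Ler level, and ago1-11 minus Col was -0.39. Of the 31 called probe sets chosen by the rule for named genes, 10 were not called in the same direction against Ler (2) and 16 against Col, and 15 were called against both. Against Ler (2) these were AT2G20870 and DI21 on both of their probe sets (DI21 at 1.04 and 0.79), EXPA8 (-0.86, adjusted p = 0.411), AT2G42360 (0.96, adjusted p = 0.296), AT1G22900 (0.71, adjusted p = 0.305), AT3G15356 (0.45, adjusted p = 0.540), AT3G57780 (0.97, adjusted p = 0.0801) and AT4G37660 (1.05, adjusted p = 0.0664). None of these genes was called against Col either. There, the call was also lost for MSRB5, AT1G12010 (0.64, adjusted p = 0.551), AT2G04570 (-0.13, adjusted p = 0.900), AT4G27280 (1.12, adjusted p = 0.108), AT2G43590 (2.22, adjusted p = 0.0597) and AT3G21670 (-1.36, adjusted p = 0.0553). AT1G12010 was 21.3 ± 12.8 units in ago1-11 and 13.0 ± 6.53 units in Col, and AT2G04570 was 10.6 ± 4.61 units in ago1-11 and 11.5 ± 5.05 units in Col (SD, n = 3 each). BGLU28 (3.50 against Ler (2), 4.23 against Col), EXO (1.63 and 1.99), APS4 (1.54 and 1.57), IAGLU (-2.30 and -2.66) and AT1G23130 (-1.77 and -2.42) were called against either wild type. For BGLU28 these calls also rest on a gene admitted only by its ago1-11 arrays.

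The microRNA targets also depended on the wild type. Against Ler (2), 3 of the 6 listed targets were called higher, and against Col 1. Of all 6048 probe sets tested, 305 were called higher against Ler (2) and 243 against Col. In either direction the shares were 11.9% and 12.3%. ARPN was 32.5 ± 8.67 units in ago1-11 (SD, n = 3) and 6.34 ± 1.29 units in Ler (2) (SD, n = 4), a difference of 2.16 (adjusted p = 0.00023). CCS was 252 ± 43.2 units in ago1-11 (SD, n = 3) and 76.0 ± 31.3 units in Ler (2) (SD, n = 4), a difference of 1.78 (adjusted p = 0.00049). Against Col the differences were 0.64 for ARPN and -0.07 for CCS, and neither was called. CCS differed between the Ler sets (Ler (2) minus Ler (1) -1.32, adjusted p = 0.0284), while ARPN did not pass (-1.15, adjusted p = 0.122).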

How the data were processed

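Total RNA of seedlings was labelled as biotin cRNA, per the labels' protocols. The authors deposited 1 linear intensity for each probe set and array, and the submitters' processing notes name MAS5. Which version and scaling they ran is not given in the sources used here. Of the 305139 cells, 7913 in 491 probe sets hold exactly 3 decimals and were multiplied by 1000, since no other reading exceeds 999.9. Array medians differed by up to 1.42 (log2), so each array was scaled to the median of the array medians. Probe sets above 12 units on 3 or more arrays were kept, and 1.1, the 10th percentile of all values, was added before taking log2.

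All 37 arrays entered a single fit in limma 3.58.1 (R 4.3.3) that gave each group its mean. Contrasts were moderated by eBayes with a trend, and p-values were adjusted by Benjamini-Hochberg over 6048 probe sets within each contrast. It was tested on simulated data. The number of arrays limits the precision. The series text speaks of biological replicates, but no label ties arrays to separate plants or cultures, so the p-values describe the spread among these arrays alone. Tables and figures used Python 3.11.15, pandas 2.3.3, numpy 2.4.6 and matplotlib 3.10.9.

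The platform annotation gives 3794 probe sets 1 gene, 70 several and 4383 none, and 3784 matched 3592 loci of the RefSeq TAIR10.1 table. A locus stands in a list by its brightest probe set. Named were, from called probe sets with 1 gene and no overlap between groups, the 15 with the highest and the 15 with the lowest difference, every called list member, and the member with the smallest adjusted p in lists with none called. Other list members were named after their values were seen. The comparison, the lists and the rule were chosen with earlier results of these data known. The patterns for thionins and chaperonins were corrected after values were seen, because they matched unrelated genes. Promoter and protein sequences were not used here.

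Alternatives covered scaling, constant, filter, arrays in the fit, trend, wild type, probe set type, the cells multiplied by 1000 and the omission of each array. Scaling over tested probe sets and array quality weights were added after the data were seen.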

Additional observations from a re-analysis of the deposited data

Results flagged for a closer look

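Of the genes called at 21 days, those named by the rule with a called difference between the effects at 21 and 9 days (21-day effect minus 9-day effect, limma contrast) were BGLU28 (4.27, adjusted p = 0.0121), XTH33 (3.97, adjusted p = 0.00174), AT3G15356 (3.73, adjusted p = 0.0011), MSRB5 (2.57, adjusted p = 0.00143) and AT1G60590 (-2.57, adjusted p = 0.0305). AT2G20870 showed one on probe set 12096_at (-3.75, adjusted p = 0.0228). It was also called for AT2G46140 (3.67, adjusted p = 0.0127) and AT1G54010 (3.36, adjusted p = 0.027), which just missed the call at 21 days, and for the unnamed probe set 14635_s_at (10.29, adjusted p = 1.5e-09).

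The alleles differed at 21 days (ago1-11 minus ago1-10) for BGLU28 (3.36, adjusted p = 0.00263), EXO (1.91, adjusted p = 0.00546), AT4G36430 (-1.59, adjusted p = 0.0208), AT1G23130 (-1.16, adjusted p = 0.0461) and APS4 (-0.92, adjusted p = 0.0374). For AT2G20870 the difference was 2.55 on probe set 12097_g_at (adjusted p = 0.0092). Of genes named without a call against Ler (1), YAB3 (1.95, adjusted p = 0.00011), ARPN (-1.50, adjusted p = 0.0208) and OSM34 (-1.54, adjusted p = 0.0404) differed between the alleles. The BGLU28 value again comes from a gene tested only because of its 21-day ago1-11 arrays.

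The ago1-11 and dcl1-9 effects, each against its own Ler set, differed for AT4G33550 (-2.11) and IAGLU (-1.96), both with an adjusted p of 0.0151, and for the unnamed probe sets 14635_s_at (5.52, adjusted p = 0.000755) and 15141_s_at (-3.60, adjusted p = 0.0288). For the unnamed probe sets the wild-type sets themselves stood apart. Probe set 14635_s_at averaged 6.46 units in Ler (1) and 265 units in Ler (2), beside 213 units in ago1-11 and 160 units in dcl1-9. Probe set 15141_s_at averaged 479 units in Ler (1) and 48.8 units in Ler (2), beside 47.7 units in ago1-11 and 59.0 units in dcl1-9.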

How the results depend on the processing

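The count of 145 called probe sets was 59 with only the 6 arrays in the fit, 95 with plain probe sets only, 317 with array quality weights, 721 with Ler (2) and 742 with Col as wild type, and 56 to 257 over omissions of 1 array. Under the other alternatives it was 128 to 196. The 72 to 73 split between higher and lower became 74 to 145 without ago1-11 replicate 3, 305 to 416 with Ler (2), 243 to 499 with Col, and 100 to 69 with scaling over tested probe sets, an alternative added after the data were seen. The age difference (103) was called for 401 with array weights and for 24 to 272 over omissions. The allele difference (454) was called for 275 with plain probe sets, 294 without the probe sets that hold cells multiplied by 1000, 765 with array weights and 182 to 502 over omissions. The dcl1-9 difference (12) was called for 19 with trimmed-mean scaling, 23 with 16 added, 22 with the 21-day arrays only, 5 with plain probe sets, 84 with array weights and 5 to 16 over omissions. Over 42 named probe sets and 22 alternatives, 753 of 901 values kept direction and side of the threshold, 125 lost the call, 20 gained it and 3 changed sign. The 3 were MSRB5 against Col (-0.39) and AT2G20870 against Ler (2) (0.12 on probe set 12097_g_at and 0.04242 on 12096_at). The causes were not tested, apart from fewer probe sets or arrays where the alternative removes them. No paired analysis was possible because the titles of the 2 groups share fewer than 2 replicate letters. No detection calls were used here, and signals below 12 units have sizes that depend on the constant added.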
